A study of Saccharomyces cerevisiae with 6 samples.

Results

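The introns described here are splice junctions of budding yeast nuclear RNA that share neither splice site with an annotated intron. A junction was a member if it was absent from the annotation, had GT-AG or GC-AG ends, spanned at most 2000 nt and was crossed by at least 5 uniquely mapped reads summed over 6 libraries. Members were thus selected on their summed read count and not on any difference between strains. The rule found 2224 members among 5609 nuclear junctions with at least 5 reads, beside 281 annotated junctions and 698 unannotated junctions that share a splice site with an annotated intron. At the edge of the rule, 215 members had exactly 5 reads, and 266 candidates with 4 reads were left out.

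The libraries came from 3 strains with 2 biological replicates each, grown to log phase and sequenced as rRNA-depleted total RNA. The fast mutant carries rpb1-G1097D (CKY772), the slow mutant rpb1-H1085Y (CKY691) and WT the normal RPB1 (CKY690), which encodes the biggest RNA polymerase II (RNAPII) subunit. In all of them the chromosomal RPB1 gene is deleted and the allele sits on a LEU2 plasmid with a centromere, UPF1 is deleted and Rpb3 has a TAP tag. Each strain is 1 genetic background in which the plasmid allele is the stated difference, and junction counts do not show whether the allele is present. Levels are in RPM, the unique reads across a junction per 1000000 unique reads across annotated nuclear junctions of the same library, which numbered 3817599 to 6178998 per library.

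The spliceosome recognises an intron by its 5′ splice site, by a branch point whose adenosine attacks that site, and by the 3′ splice site. In budding yeast these sequences are unusually uniform, and most introns begin GTATGT and hold TACTAAC around the branch adenosine. Introns that fall in reading frames often leave a premature stop codon in the spliced RNA, and Upf1, a helicase of nonsense-mediated decay, takes part in removing such RNAs. Without UPF1 they can persist.

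The label cryptic went against where most reads lay. Of all member reads 97.3% crossed 179 introns that end before a start codon, in the leader of the mRNA, and 90.5% crossed 43 introns in the leaders of ribosomal protein (RP) genes. The RefSeq annotation of the same genome build, whose gene models hold coding spans without leaders, lists 1 member as an intron, in HOP2, and that gene is named because of this match. The set is therefore called here by its rule, as introns that share no annotated splice site.

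The 5′ sites and branch regions of leader introns that changed most, or were read most, are printed from the R64 reference in the sense of the gene. The first 6 bases of the intron and the branch sequence TACTAAC are in capitals. RPL32 (chrII:45645-45977, + strand) has the most reads, RPL29 (chrVI:223441-223771, - strand) departs from the usual 5′ site, RPS26A (chrVII:148599-148966, - strand) and RPS26B (chrV:423591-423951, + strand) are introns of 2 genes for the same protein, and URA2 (chrX:172433-172752, - strand) moved in opposite directions in the mutants.
RPL32 5′ site: ataaaaGTATGTgacatata
RPL32 branch region: ctgttaTACTAACaaactt
RPL29 5′ site: tagaaaGTACGTtatattat
RPL29 branch region: cattttTACTAACctttaa
RPS26A 5′ site: taagtaGTATGTtaacgaca
RPS26A branch region: agaagtTACTAACtaatta
RPS26B 5′ site: ggaaaaGTATGTtataagag
RPS26B branch region: cctcttTACTAACttcaat
URA2 5′ site: atttgaGTATGTtttttatg
URA2 branch region: aacaatTACTAACattaat

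Members inside reading frames looked different. Of these, 4 are shown whole because their levels are described below, with the first 6 and last 3 bases and the branch-like sequence nearest to the 3′ end (TACTAAC, else TACTAAT, else CTAAC) in capitals. PEX4 lies at chrVII:756948-757152 (+ strand), EST1 at chrXII:609403-609496 (- strand), MRM2 at chrVII:253186-253248 (- strand) and RPL30 at chrVII:439382-439479 (+ strand). The bases are those of the reference, and the strains were not read for sequence differences.
PEX4 intron: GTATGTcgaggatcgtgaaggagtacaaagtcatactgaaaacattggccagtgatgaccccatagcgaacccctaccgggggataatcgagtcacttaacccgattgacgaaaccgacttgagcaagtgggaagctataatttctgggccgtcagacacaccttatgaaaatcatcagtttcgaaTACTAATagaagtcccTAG
EST1 intron: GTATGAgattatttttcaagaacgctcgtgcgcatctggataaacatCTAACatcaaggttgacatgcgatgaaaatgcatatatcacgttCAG
MRM2 intron: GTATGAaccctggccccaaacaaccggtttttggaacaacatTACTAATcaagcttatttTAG
RPL30 intron: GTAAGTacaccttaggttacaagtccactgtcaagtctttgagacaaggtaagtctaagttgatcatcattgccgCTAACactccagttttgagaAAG

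Sequence features followed the read count, which itself differed by place. GTATGT began 26 of the 34 members with at least 1000 reads (76.5%, exact 95% interval 58.8 to 89.3), 18 of 113 with at least 100 but fewer than 1000 reads (15.9%) and 182 of 2077 with fewer (8.76%), against 77.6% of 259 annotated introns with GT-AG or GC-AG ends. TACTAAC lay within the last 100 nt of 24 of the 34 (70.6%), 33 of the 113 (29.2%) and 235 of the 2077 (11.3%), against 208 annotated introns (80.3%). These shares sit above the genome background even in the members with few reads. They count members, however, and members that share an end can count the same splice site or branch sequence more than once. Shares per locus were not computed. Among all GT dinucleotides of both nuclear strands 0.434% begin GTATGT, and among all 100-nt windows 0.589% hold TACTAAC, 0.871% TACTAAT and 6.41% CTAAC. Members shorter than that window were searched over their whole length, with the sense strand alone.

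Most members were seen rarely. The median was 11 reads, and 1188 of the 2224 (53.4%) had reads in 1 library alone, while 247 had reads in all 6. No member with at least 100 reads was confined to 1 library. Members sharing an end with each other numbered 786, and joining them left 1692 separate loci. The intervals given for shares cover counting error only.

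**Figure D1:**
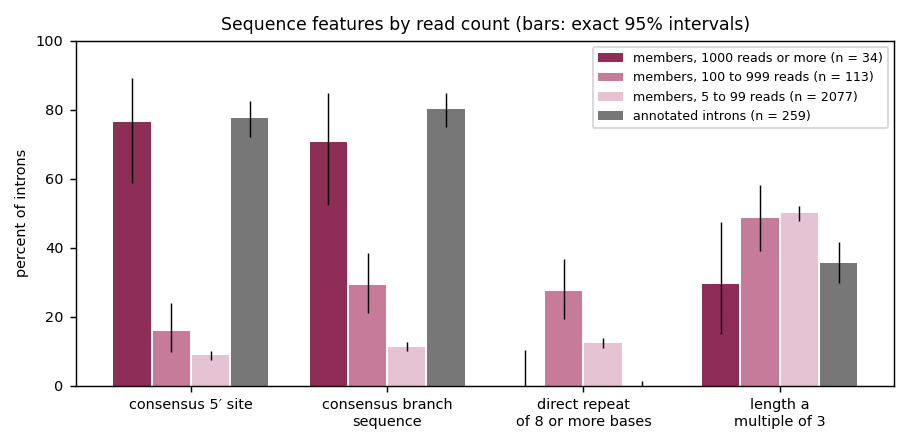
Percent of introns (y axis) with 4 sequence features (x axis), for members in 3 classes of read count and for annotated introns, with exact 95% intervals as bars. Members with at least 1000 reads had the consensus 5′ site in 76.5% and annotated introns in 77.6%, while 8.76% of members under 100 reads had it.

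By place, 996 members lay inside a coding region, 616 were antisense to a gene by the strand of their splice motif, 179 ended before a start codon and 144 crossed one. A further 73 lay after a stop codon, 35 crossed a stop codon and 40 lay inside genes that code for no protein. Within the bounds of a RefSeq intron lay 11, among them the HOP2 intron that RefSeq itself lists. The remaining 130 lay within reach of no gene. Introns across a start codon were long, with a median of 469 nt against 155.5 nt over all members. TACTAAC was present in 46.4% of the leader introns, 24.3% of those across a start codon, 8.13% of those inside coding regions and 6.01% of the antisense ones. GTATGT began 37.4% of the leader introns (median 26 reads) and 7.78% of the members outside the leaders (median 11 reads). Read count and place were not separated in these shares.

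A group of 287 members had direct repeats of at least 8 bases at their 2 ends, so that the junction could be placed at more than one position. None of these began GTATGT, 1 held TACTAAC, and the length of 263 (91.6%) was a multiple of 3, against 35.5% of annotated introns. Among them were 45 of the 99 members in cell wall and flocculation genes. The longest repeats found were 80 bases antisense to YNL190W, 79 bases antisense to NUM1 and 74 bases in FLO1. The search could return at most 80 bases, so these repeats may be longer. The NUM1 protein anchors dynein at the cell cortex, and FLO1 is a flocculin gene of tandem repeats. NOP1, the gene of fibrillarin, carried 11 members in its glycine- and arginine-rich stretch, and the most read of them (chrIV:427467-427520, + strand, with its first 6 and last 3 bases in capitals) shows the repeated triplets.
NOP1 intron: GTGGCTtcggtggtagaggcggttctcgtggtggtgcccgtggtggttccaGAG

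Without the repeat group, 43.3% of members still had a length divisible by 3. Whether junctions between repeats arose by splicing was not tested. Among the NOP1 members that intron had 79 and 87 reads in fast, 37 and 55 in slow and 62 and 61 in WT, with an adjusted p of 1 for either mutant against WT.

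Summed over all members, the level was 98803 and 96942 RPM in fast, 70720 and 69607 in slow and 72215 and 69625 in WT. Fast lay above the other strains, and slow and WT overlapped. The sum was carried by the RP leaders, at 92526 and 90233 in fast, 60413 and 58790 in slow and 65586 and 62751 in WT. Leader introns of other genes summed to 4172 and 4475 in fast, 7655 and 8093 in slow and 4829 and 5087 in WT. The lower sum in fast came from URA2 and BMH2. Without these hosts, a comparison chosen after seeing the data, it was 2898 and 2988 in fast, 3916 and 4047 in slow and 2794 and 2876 in WT. Outside the leaders, the 2045 remaining members summed to 2105 and 2234 in fast, 2652 and 2724 in slow and 1799 and 1787 in WT, above WT in every mutant library.

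Part of this order rested on the reads the libraries were scaled by. Annotated junction reads are mostly those of RP genes. Outside the leaders the ratio of slow to WT was 1.50 on annotated junction reads, 1.24 on annotated junction reads of non-RP genes and 1.05 on all reads of the library, and on the last scale slow and WT overlapped. The ratio of fast to WT for the same members was 1.21, 1.11 and 1.28 on these scales, with fast above WT on each. For leader introns of other genes the ratio of slow to WT was 1.59, 1.31 and 1.11, with slow and WT overlapping on the scale of all reads, and that of fast to WT was 0.872, 0.800 and 0.923. Leader introns of RP genes stayed higher in fast than in WT (1.42, 1.31 and 1.50) and lower in slow (0.929, 0.767 and 0.646). The level of most host RNAs is not in the tables, so a change in splicing and a change in the host RNA cannot be told apart here, nor can fewer cells with the RNA and fewer copies per cell.

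**Figure D2:**
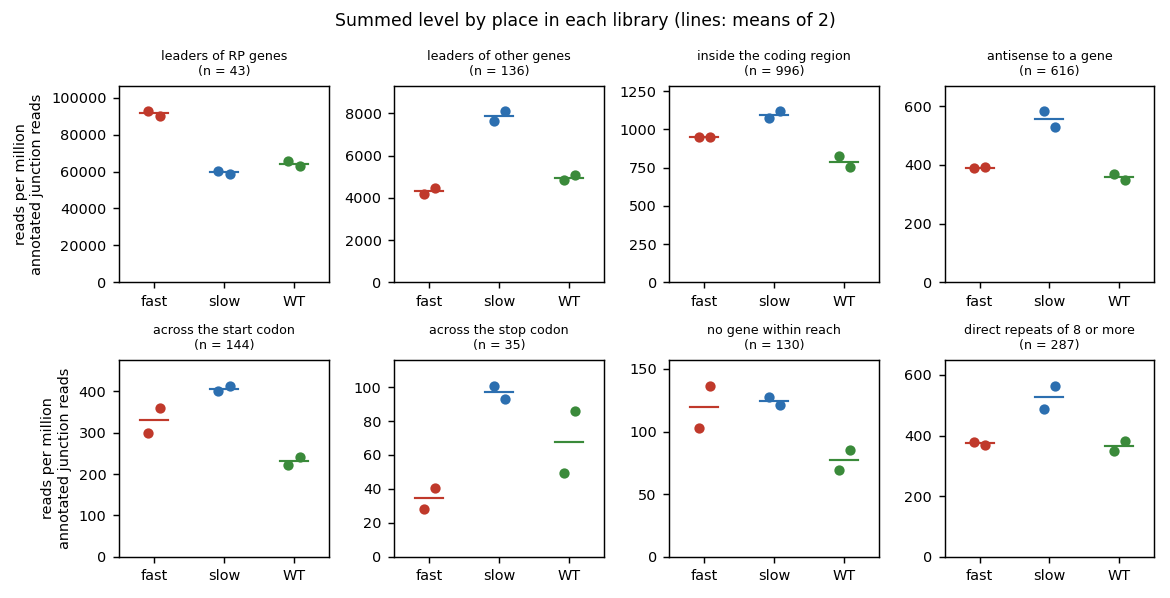
Summed level of members in RPM, scaled to annotated junction reads (y axis, from 0) for each library of fast, slow and WT (x axis), in 8 groups, with lines at the means of 2 libraries. RP leaders were highest in fast (92526 and 90233), and leaders of other genes in slow (7655 and 8093).

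Single introns were tested with edgeR's quasi-likelihood test over all 5609 junctions, with Benjamini-Hochberg adjustment. With 2 libraries per strain, this fit draws its estimate of the spread from all junctions together. The standard errors and p-values below therefore do not measure the replicate spread of each intron alone. In fast against WT, 20 members passed higher (0.899% of members, background over all junctions 0.749%) and 2 lower (0.0899%, background 0.481%). In slow against WT, 13 passed higher (0.585%, background 1.43%) and 2 lower (0.0899%, background 0.25%). In fast against slow, 16 passed higher (0.719%, background 0.677%) and 6 lower (0.27%, background 1.66%). Each called member had its libraries apart. Of those called higher, 7 of the 20 in fast and 5 of the 13 in slow had 0 reads in WT. In fast against slow, 2 of the 16 had 0 reads in slow. Members with 0 reads in WT met the read minimum only through the strains that have them, so these shares are no evidence of an excess over the background. The split of calls in slow against WT turned on the scaling, at 12 higher and 8 lower with TMM factors, 14 and 18 with DESeq2, 9 and 9 on non-RP annotated reads and 7 and 5 on all reads. In fast against slow DESeq2 gave 22 and 4 and the scale of all reads 18 and 2. Shares over all junctions under these other settings are not given here, so these counts cannot be read against a background. Over all members the median log2 difference was 0.00 in each contrast. Of the members, 1188 had reads in 1 library alone, so each of these had 0 reads in both strains of 1 contrast. Such pairs are fitted at 0, and the median therefore does not tell whether levels shifted. None of the 2077 members with fewer than 100 reads passed by edgeR, although 15, 26 and 18 had an unadjusted p under 0.05 in fast against WT, slow against WT and fast against slow, and DESeq2 called 1, 5 and 4.

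RP genes encode the proteins of the 2 ribosomal subunits. Their leader introns made up 12 of the 20 introns that rose in fast and 14 of the 16 higher in fast than in slow. These were 27.9% and 32.6% of the 43 RP leader introns (backgrounds 0.749% and 0.677%). The 43 lie in 14 host genes and are not independent. In fast against slow the main introns of RPL24B and RPS22B were counted together with another intron from the same 5′ site. RP leader introns were also read more, with a median of 71 reads against 11 over all members, and no member under 100 reads passed by edgeR. RPS26A, the gene of a small-subunit protein, had the largest change among the called RP leader introns. Its intron of 368 nt had 5902 and 5930 RPM in fast, 972 and 922 in slow and 1204 and 1123 in WT. Fast lay far above both other strains, and slow lay a little below WT. The log2 fold change was 2.35 ± 0.09 (SE, adjusted p = 4.51e-148, edgeR) for fast against WT and -0.30 ± 0.08 (adjusted p = 0.0289, edgeR) for slow against WT. The call in slow was lost without slow replicate 2 (-0.26), without WT replicate 1 (-0.25) and without fast replicate 1 or 2 (-0.30 each), and also with the slow and WT libraries fitted alone (adjusted p = 0.327, edgeR), a setting chosen after seeing the data.

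Its paralog RPS26B, which encodes nearly the same protein, changed less. The level was 2462 and 2487 in fast, 1790 and 1762 in slow and 1692 and 1598 in WT, with log2 fold changes of 0.59 ± 0.09 in fast (adjusted p = 8.06e-09, edgeR) and 0.11 ± 0.09 in slow (adjusted p = 0.822, edgeR). Reads of the RPS26A intron per read of the RPS26B intron were thus 2.40 and 2.38 in fast, 0.543 and 0.523 in slow and 0.711 and 0.703 in WT. This ratio needs no scaling of the libraries, and its values were apart between all strains. RPS29A over RPS29B was also apart between all strains, at 2.67 and 2.66 in fast, 3.75 and 3.68 in slow and 2.88 and 3.53 in WT. RPS25A over RPS25B (1.60 and 1.54 in fast, 1.72 and 1.71 in slow, 1.55 and 1.66 in WT) overlapped between fast and WT, and RPL24A over RPL24B (1.31 and 1.27 in fast, 1.31 and 1.25 in slow, 1.56 and 1.44 in WT) between the mutants. So did RPS8A over RPS8B, at 1.51 and 1.44 in fast, 1.59 and 1.49 in slow and 1.30 and 1.36 in WT. These differences between pairs were not tested.

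RPL29, the gene of a large-subunit protein, had 11041 and 11228 RPM in fast, 4538 and 5021 in slow and 5224 and 5230 in WT. It rose in fast by 1.09 ± 0.07 on the log2 scale (adjusted p = 4.22e-46, edgeR) and missed the threshold in slow (-0.13 ± 0.07), where it passed lower with TMM factors (-0.30), DESeq2 (-0.49) and on non-RP annotated reads (-0.41). The other RP leader introns that rose in fast changed by 0.38 to 0.78 on that scale, in the order RPS25A, RPS25B, RPS29A, RPS8B, RPL24A, RPS22B, RPS26B, RPS8A, RPS29B and RPL24B. Their standard errors were 0.08 to 0.09, and differences between neighbours in this order were not tested. For RPS25A the call was lost without WT replicate 1 (0.32). On the scale of all reads their log2 values were 0.46 to 0.86, all above 0, but the calls of RPL24A, RPS22B, RPS25A, RPS25B, RPS29A and RPS8B were lost. On non-RP annotated reads the calls of RPS25A (0.25), RPS25B (0.29) and RPS29A (0.31) were lost.

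RPL32 had by far the most reads and gave 26356 and 24602 RPM in fast, 23404 and 21368 in slow and 24732 and 23900 in WT. Fast and WT overlapped. Its log2 fold changes were 0.07 ± 0.06 in fast (adjusted p = 0.843, edgeR) and -0.12 ± 0.06 in slow (adjusted p = 0.822, edgeR). The slow value was called lower with TMM factors (-0.30), DESeq2 (-0.48) and on non-RP annotated reads (-0.39). Besides RPS26A, RPS8B was the RP leader intron called lower in slow by edgeR on annotated junction reads, with 4077 and 4144 RPM in fast, 2240 and 2399 in slow and 2996 and 2706 in WT (slow against WT -0.30 ± 0.08, adjusted p = 0.0204, edgeR). That call was lost without slow replicate 1 (-0.25) and without WT replicate 1 (-0.22). With DESeq2, 14 of the 43 RP leader introns passed in slow against WT, all of them lower, against 2 with edgeR. DESeq2 moved log2 values in this contrast by a median of -0.36 and called 18 of all 2224 members lower. Its share over all junctions is not given here.

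RPS22B has both a leader intron and an annotated intron in its reading frame, which lets the leader junction be read against another junction of the same transcript. The leader intron of 557 nt had 94.5 and 96.6 reads per 100 reads of the annotated junction in fast, 64.5 and 68.0 in slow and 74.5 and 74.1 in WT. The groups did not overlap, with fast highest and slow lowest. A 3′ site 7 nt upstream was used with the same 5′ site, at 20.6 and 20.8 reads per 100 of the main one in fast, 17.6 and 17.8 in slow and 22.3 and 19.9 in WT, where fast and WT overlapped.

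**Figure D3:**
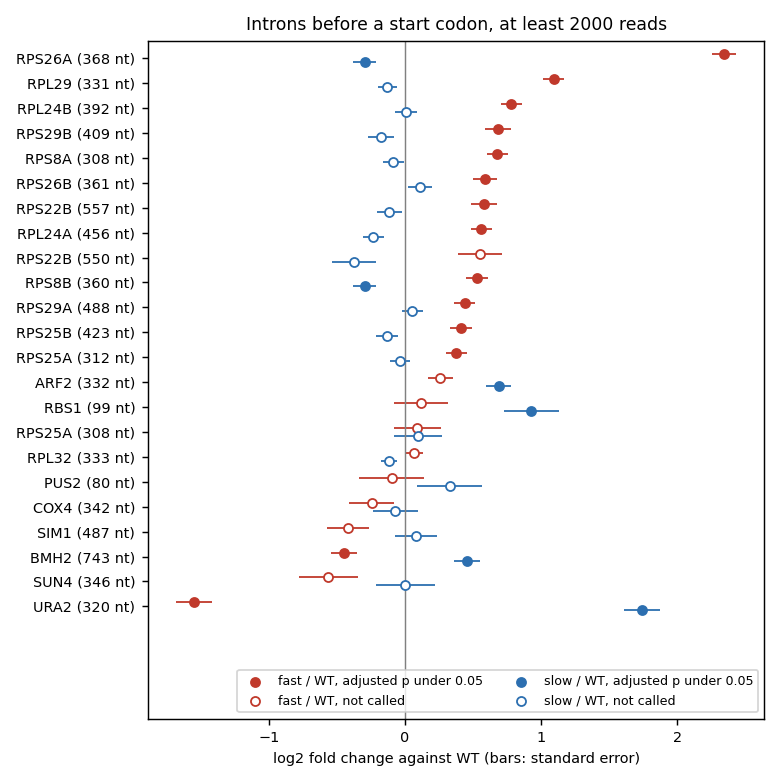
Log2 fold change against WT (x axis, bars are standard errors) of the 23 introns before a start codon with at least 2000 reads (y axis), for fast and slow, filled where the adjusted p was under 0.05. Most RP introns lie to the right of 0 for fast, RPS26A farthest at 2.35, and RPL32 lies at 0.07, and URA2 lies at -1.55 for fast and 1.74 for slow.

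Among leader introns of other genes, URA2 changed most. It encodes the enzyme of the first steps of pyrimidine synthesis. The intron of 320 nt had 144 and 160 RPM in fast, 1438 and 1536 in slow and 434 and 456 in WT, so that the strains were well apart. It fell by 1.55 on the log2 scale in fast (SE 0.13, adjusted p = 7.39e-29, edgeR) and rose by 1.74 ± 0.13 in slow (adjusted p = 6.57e-36, edgeR), a difference between the mutants of -3.29 ± 0.14 (adjusted p = 7.27e-116, edgeR).

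Another 3′ site of URA2, 20 nt downstream, gave an intron of 340 nt with 25.1 and 12.2 RPM in fast, 178 and 125 in slow and 31.8 and 19.2 in WT. It rose in slow (2.57 ± 0.32, adjusted p = 1.15e-12, edgeR), while fast and WT overlapped. Set against the main site it had 17.4 and 7.62 reads per 100 in fast, 12.4 and 8.12 in slow and 7.34 and 4.21 in WT, so that use of the site did not separate the mutants from each other.

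BMH2, a 14-3-3 protein gene, also moved in opposite directions. Its intron of 743 nt had 1064 and 1265 RPM in fast, 2060 and 2292 in slow and 1500 and 1674 in WT. The log2 fold changes were -0.45 ± 0.09 in fast (adjusted p = 0.000321, edgeR) and 0.46 ± 0.09 in slow (adjusted p = 0.000224, edgeR), and the call in slow was lost with TMM factors (0.28), DESeq2 (0.10), non-RP annotated reads (0.18) and all reads (-0.05). The last scale ended the call in fast too (-0.36). The call in fast was lost without fast replicate 1 (-0.33) and without WT replicate 2 (-0.37), and that in slow without WT replicate 1 (0.38).

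ARF2, a GTPase of vesicle transport, had 1667 and 1684 RPM in fast, 2175 and 2343 in slow and 1363 and 1442 in WT. It rose in slow (0.69 ± 0.09, adjusted p = 4.27e-11, edgeR) but the call was lost on the scale of all reads (0.18), and in fast it gave 0.26 ± 0.09 (adjusted p = 0.276, edgeR). RBS1, a factor in the assembly of RNA polymerase III, had 127 and 171 in fast, 279 and 244 in slow and 146 and 129 in WT (slow against WT 0.93 ± 0.20, adjusted p = 0.000424, edgeR). That call too was lost on the scale of all reads (0.39) and on that of non-RP annotated reads (0.65). The leader introns of SIM1, SUN4, COX4 and PUS2 passed in no contrast. These 4 genes were singled out after their values were seen, as the remaining leader introns in the plot of fold changes.

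**Figure D4:**
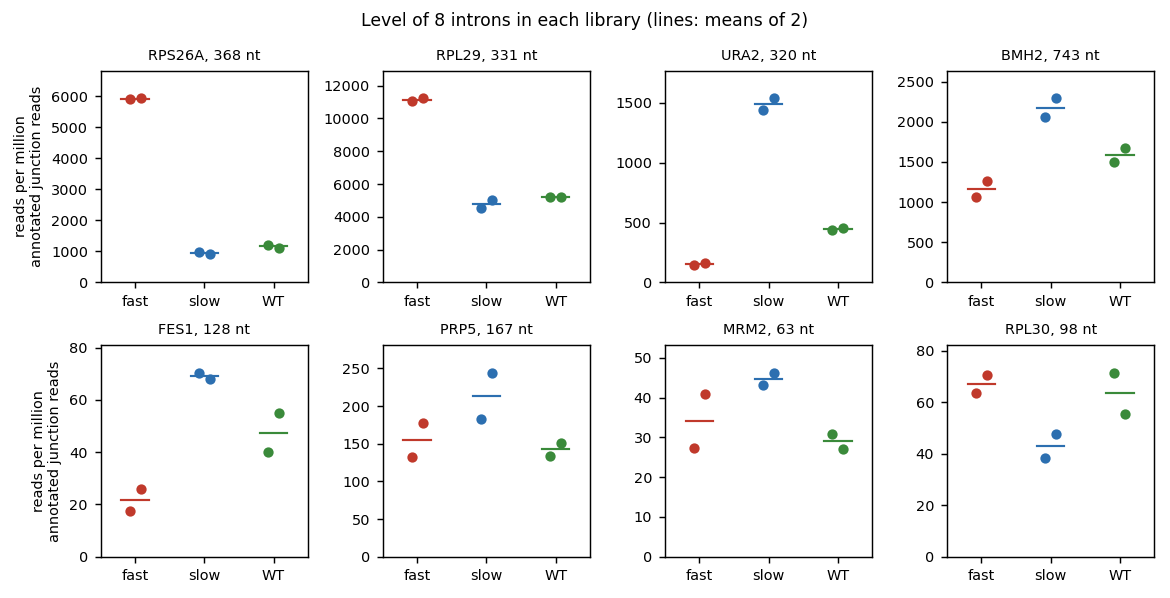
Level in RPM, scaled to annotated junction reads (y axis, from 0) of 8 introns in each library of fast, slow and WT (x axis), with lines at the means of 2 libraries. RPS26A and RPL29 were highest in fast, URA2 and BMH2 were lowest in fast and highest in slow, and the values of PRP5, MRM2 and RPL30 did not pass by edgeR.

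A list of 10 hosts taken from the study's text and primers, which leaves out other genes that it names, carried 51 members. Of these, 3 were higher in fast than in WT (5.88%, background 0.749%), 2 higher in slow than in WT (3.92%, background 1.43%) and none lower by edgeR, while in fast against slow 1 was higher and 1 lower. The study chose such hosts on these libraries, so the counts are no independent evidence. The called introns of PEX4 and EST1 among them had 0 reads in WT. PRP5, an RNA helicase that acts in the first steps of spliceosome assembly, held the most reads of this list, in an intron across its start codon (chrII:691967-692133, + strand). It had 133 and 178 RPM in fast, 183 and 245 in slow and 134 and 150 in WT. Slow lay above WT in both libraries, but the log2 fold change of 0.59 ± 0.20 did not pass (adjusted p = 0.166, edgeR), nor did 0.13 ± 0.20 in fast (adjusted p = 0.941, edgeR).

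FES1 encodes a nucleotide exchange factor of Hsp70, and its intron of 128 nt (chrII:443706-443833, - strand) crosses the stop codon. It had 17.6 and 26.0 RPM in fast, 70.5 and 67.8 in slow and 40.1 and 54.8 in WT, with no overlap between strains. Fast was lower than slow by -1.66 ± 0.37 (log2, adjusted p = 0.000441, edgeR), while fast against WT (-1.12 ± 0.36, adjusted p = 0.131, edgeR) and slow against WT (0.54 ± 0.36, adjusted p = 0.822, edgeR) did not pass. The call against slow was lost without fast replicate 1 (-1.41) and on the scale of all reads (-1.07).

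MRM2, a mitochondrial rRNA methyltransferase gene, had 27.4 and 41.0 RPM in fast, 43.2 and 46.3 in slow and 30.9 and 27.1 in WT for the 63-nt intron printed above. RPL30, whose protein is known to bind its own transcript and block its splicing, had 63.6 and 70.5 in fast, 38.2 and 47.9 in slow and 71.6 and 55.5 in WT for the 98-nt intron inside its coding region. Fast and WT overlapped for each of these introns, and neither passed in any contrast by edgeR. DESeq2 called the RPL30 intron lower in slow than in WT (-0.92, adjusted p = 0.0445) and higher in fast than in slow (0.94, adjusted p = 0.0496). As a share of reads at the annotated RPL30 junction, the 98-nt intron was 0.280% and 0.330% in fast, 0.188% and 0.240% in slow and 0.278% and 0.249% in WT, with no overlap between strains.

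PUS7, a pseudouridine synthase gene, held several junctions from a shared 5′ site that begins GTAAGG. The intron of 323 nt (chrXV:791693-792015, - strand) had 104 and 91 reads in fast, 143 and 89 in slow and 1 and 13 in WT. Every mutant library was well above the WT ones. The log2 fold changes were 3.49 ± 0.70 in fast (adjusted p = 9.89e-05, edgeR) and 4.27 ± 0.73 in slow (adjusted p = 1.21e-06, edgeR). Without WT replicate 1 the call in fast was lost (2.58, adjusted p = 0.068, edgeR). The intron of 340 nt from the same 5′ site had 98 and 53 reads in fast, 25 and 53 in slow and 6 and 21 in WT and did not pass (2.20 ± 0.92, adjusted p = 0.664 in fast, edgeR). EGT2, TIF3 and NOP1, the other hosts of this list, had no member called by edgeR in any contrast.

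Some introns were read in certain strains and not at all in others. Counting introns with 5 or more reads in each library of a strain and 0 elsewhere, 14 members were found in fast alone, 10 in slow alone, 8 in WT alone and 6 in both mutants. Such members entered the set through the strain that has them, so their number is a description. The 14 of fast included 6 that begin GTATGT, against 1 of the 10 of slow and 0 of the 8 of WT, with 10.2% over all members. The fast libraries had the most annotated junction reads, at 6178998 and 6003137. On all reads, relative to WT replicate 1, the slow libraries were the deepest, at 1.19 and 1.29 against 1.12 and 1.12 in fast. The same counts were not made over all junctions, and these differences were not tested.

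PEX4, a ubiquitin-conjugating enzyme gene needed to make peroxisomes, was the clearest of these. The intron printed above had 119 and 115 reads in fast and 0 in each slow and WT library. Against the floor of 3 counts over the 2 libraries of a strain its level in fast was at least 67.0-fold higher than in WT and at least 57.2-fold higher than in slow. An intron antisense to SNN1 (chrXIV:466288-466652, - strand), a gene of endosome maturation, followed the same pattern with 60 and 57 reads in fast and 0 elsewhere (at least 33.5-fold higher than in WT).

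ADE2, an enzyme of purine synthesis, had an intron across its start codon (chrXV:565946-566193, - strand) with 69 and 85 reads in fast, 16 and 37 in slow and 0 in both WT libraries. Its level was at least 44.1-fold higher in fast and at least 20.7-fold higher in slow than in WT. EST1, a subunit of telomerase, had 47 and 78 reads in fast, 24 and 36 in slow and 0 in WT for the 94-nt intron, at least 35.8-fold higher in fast and at least 23.4-fold higher in slow. In these genes the difference between the mutants did not pass (adjusted p = 0.753 and 0.865, edgeR).

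PDL32 (chrXIII:443439-443821, + strand, after the stop codon), the proteasome activator gene BLM10 (chrVI:123405-123550, + strand, across the start codon) and an intron antisense to OSW2 (chrXII:249375-250160, + strand), a spore wall gene, were the remaining called members with 0 reads in WT. PDL32 had 21 and 24 reads in fast and 31 and 40 in slow. BLM10 had 15 and 34 in fast and 38 and 21 in slow. OSW2 had 40 and 33 in fast and 11 and 21 in slow. Introns of PEX4, SNN1, ADE2, EST1, PDL32, BLM10 and OSW2 make up 7 of the 20 members called higher in fast than in WT, and the last 5 are among the 13 called higher in slow. Each passed the read minimum only through the strains that have it, so these calls support nothing. Those of SNN1, PDL32, BLM10 and OSW2 against WT were also lost when WT replicate 1 was left out, and the call of OSW2 was lost in 7 of 20 alternatives in fast and in 12 of 20 in slow. The call of ADE2 in slow was lost with only slow and WT fitted, a setting chosen after seeing the data.

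**Figure D5:**
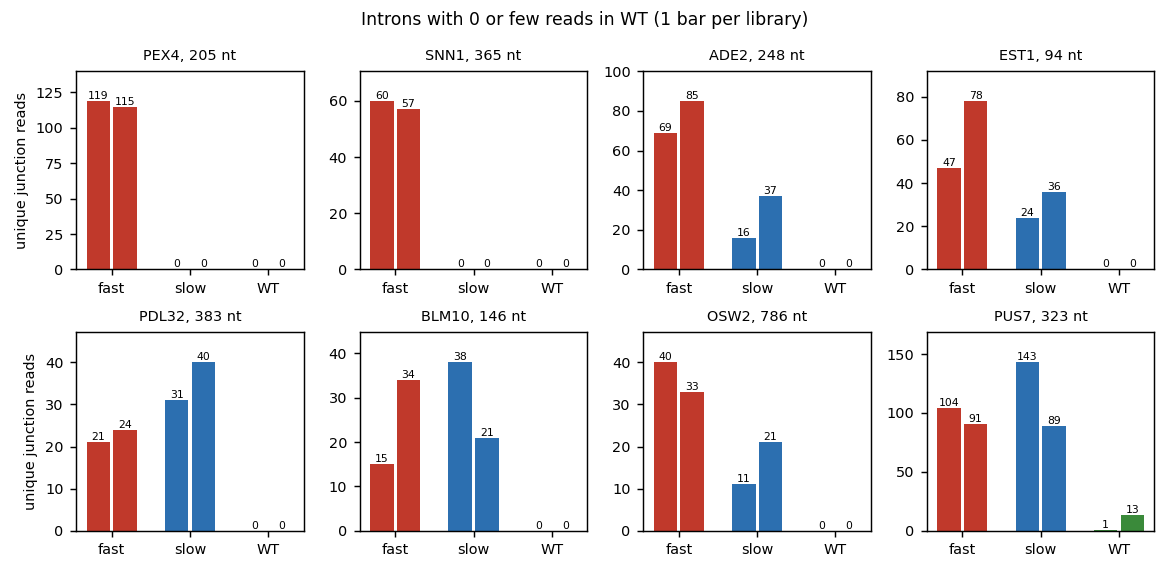
Unique junction reads (y axis, from 0) in each library, 1 bar per library, for fast, slow and WT (x axis) at 8 introns. PEX4 and SNN1 had reads in fast alone (119 and 115, 60 and 57), the next 5 introns had reads in both mutants and 0 in WT, and PUS7 had 1 and 13 reads in WT.

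Outside these hosts the called members were few. The repeat-flanked junction antisense to NUM1 had 51 and 43 reads in fast, 123 and 124 in slow and 10 and 27 in WT, and it was higher in slow than in WT (2.95 ± 0.72, adjusted p = 0.00433, edgeR), a call lost without slow replicate 1 (2.73), without WT replicate 1 (2.35) and on the scale of all reads (2.46). The 62-nt HOP2 intron (chrVII:436313-436374, + strand), in a gene of meiotic recombination, had 191 and 353 reads in fast, 237 and 372 in slow and 154 and 117 in WT. It was higher in slow than in WT (log2 1.39 ± 0.36, adjusted p = 0.0105, edgeR), but the call was lost without slow replicate 2 (1.27) or WT replicate 2 (1.28), with DESeq2 (1.03), on non-RP annotated reads (1.10) and on all reads (0.87). Of the 66 members in glycolysis and fermentation genes, the 71 in translation factor genes and the 99 in cell wall and flocculation genes, none was called by edgeR in any contrast, which is near the background of 0.25% to 1.66% for lists of this size. At an unadjusted p under 0.05 the count was 0 for the first and second of these lists in each contrast, and for the cell wall list it was 3 in fast against WT, 2 in slow against WT and 3 in fast against slow, where DESeq2 called 1 each. Of the 63 members in chaperone genes 1 was called, the FES1 intron, and of the 76 in genes of rRNA and RNA processing 1 was called higher in each mutant than in WT, in PUS7. The members of RP hosts outside the leader had no call by edgeR (1, 6 and 3 at an unadjusted p under 0.05 in the contrasts as ordered above, and 0, 1 and 2 by DESeq2), and together they summed to 285 and 276 RPM in fast, 251 and 294 in slow and 338 and 266 in WT.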

How the data were processed

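Total RNA of the fast, slow and WT strains, 2 biological replicates each, was analysed at splice junctions. The authors sequenced rRNA-depleted, stranded libraries from both ends and aligned the reads to R64 (sacCer3) with an Ensembl annotation, using STAR at default settings in a version that is not stated. They deposited raw counts of uniquely and multiply mapped reads per junction, with the longest overhang in bases (another quantity, used as a description), and separate tables of raw counts and FPKM values per gene and read class. The deposited FPKM served only to obtain the relative total of each library (count divided by FPKM).

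Unique counts of 5609 nuclear junctions with at least 5 reads were fitted in edgeR 4.0.16 under R 4.3.3 with its quasi-likelihood test, all 6 libraries in one fit, with annotated junction reads as library size, and adjusted by Benjamini-Hochberg (threshold 0.05). Scripts were tested on simulated data. Other steps used Python 3.11.15, scipy 1.17.1 and pandas 2.3.3. A host is the coding span on the same strand that overlaps or lies within 300 nt, and an intron ending within 100 nt before a start codon was given to that gene. All members had reference bases that fit their deposited motif. Standard errors are the absolute log2 value over the square root of F, and they rest on a spread shared over junctions. The floor for a count of 0 was 3 counts over the 2 libraries of a strain. Intervals are exact 95% binomial ones. The reads carry no molecular identifiers and are not independent molecules. Depth was 3817599 to 6178998 annotated junction reads per library.

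The members and lists were chosen with earlier results of these data known. Named introns are all members in a list of 10 hosts taken from the study's text and primers (FES1, PRP5, MRM2, RPL30, EGT2, EST1, PUS7, TIF3, NOP1 and PEX4, not every gene it names), the 12 with the most reads, for each contrast and direction the 6 largest called changes with libraries apart, RP host members with at least 50 reads, and the 3 with the longest repeats. Alternatives were TMM, DESeq2 1.42.0, 2 other library sizes, other read minimums, multiply mapped reads, GT-AG ends alone, at most 1000 nt, no repeats, a replicate block, Fisher's exact test on summed reads, each library left out and, chosen after seeing the data, a fit of the compared strains alone, the members without leader introns, leader introns without URA2 and BMH2, and members joined by a shared splice site.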

Additional observations from a re-analysis of the deposited data

Results flagged for a closer look

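For 4 leader introns the fast and slow mutants each differed from WT in opposite directions and also from each other by the edgeR test. The log2 difference of fast minus slow was -3.29 for URA2, -0.90 for BMH2, 0.83 for RPS8B and 2.64 for RPS26A. URA2, RPS26A and RPS8B kept the difference between the mutants under every alternative that was run. RPS26A and RPS8B lost their calls in slow against WT when certain libraries were left out. BMH2 lost its difference between the mutants on the scale of all reads (-0.31). On that scale BMH2 gave -0.36 in fast and -0.05 in slow against WT, so the directions were no longer opposite and neither was called.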

How the results depend on the processing

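Of 58 called changes of named introns, 28 kept their call under every alternative run. The 58 include the calls of PEX4, SNN1, ADE2, EST1, PDL32, BLM10 and OSW2, whose introns had no reads in WT and whose calls support nothing. Among the 28 are such calls of PEX4, EST1 and ADE2. GT-AG ends alone, the shorter length limit, no repeats and Fisher's exact test lost none of the named calls. These settings therefore did not narrow the count of 28. The number of members called was 22 in fast against WT, 15 in slow against WT and 22 in fast against slow. In slow against WT it moved to 32 with DESeq2 and to 8 with a minimum of 5 reads in each library of some strain. Fisher's exact test on summed reads, which takes reads as independent, gave 953, 950 and 951. Leaving out 1 library gave 17 to 23, 10 to 14 and 18 to 25 calls. With the replicate block, where the samples share only a number, the counts were 23, 16 and 24. For none of these alternatives is the share over all junctions given here. The summed level of fast over WT was 1.38 and became 1.26 on non-RP annotated reads, 1.46 on all reads and 1.21 without leader introns. Slow over WT was 0.989 and became 0.816, 0.688 and 1.50 under these settings. Fast over slow was 1.39 and became 1.55, 2.12 and 0.807. Leaving out 1 library gave 1.36 to 1.41, 0.972 to 1.01 and 1.38 to 1.41.

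Relative to annotated junction reads, the scale of all reads moved log2 values by 0.08 in fast against WT, -0.52 in slow against WT and 0.60 in fast against slow, and DESeq2 by -0.05, -0.36 and 0.31. The direction of calls near 0 turned with it. In slow against WT DESeq2 called RPS26B (-0.25), RPL24B (-0.35) and RPS29A (-0.31) lower, and 14 RP leader introns in all, and on all reads BMH2 gave -0.05 in that contrast and ARF2 gave 0.16 in fast against slow, neither called. The cause was not tested. None of the members with fewer than 100 reads was called by edgeR (DESeq2 called 1, 5 and 4), and what was detectable at that depth was not tested.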
